A study of Mus musculus with 13 samples.

Results

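The most highly expressed genes of mouse neural stem and progenitor cells are described here through 799 gene bodies. They are the gene body entries that the authors' table marks as Top in expression, that lie on autosomes and that share no base with another gene body entry. The table marks 1034 of its 20689 gene bodies as Top; 34 of these were left out because they lie on chromosome X, 10 because they are mitochondrial, and 191 because they overlap another gene body. Other and Bottom gene bodies, chosen in the same way, numbered 14245 and 885, so that the 799 were drawn from 15929 in all. The expression class is the authors' own and the table holds no expression value, so how far inside its limit a gene lies cannot be given.

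The measurements came from chromatin immunoprecipitation followed by sequencing (ChIP-seq), in which an antibody pulls down the DNA lying under a chromatin protein or mark. The cells were isolated from the cortex and ganglionic eminences of E14.5 embryos and grown as neurospheres, and were collected on day 3 of passage 5. The labels name libraries of Kat7lox/lox NesCreT/+ cells, in which Kat7 is deleted (1 for KAT7 and 3 for H3K14ac), of Kat7+/+ NesCreT/+ cells, in which it is intact (3 for KAT7 and 4 for H3K14ac), and 2 IgG controls. Cells of both genotypes carried the Cre transgene driven by nestin sequence. The table holds 1 merged column per antibody, which separates neither genotypes nor animals and in which the IgG libraries have no column, so Kat7-deleted and Kat7-intact cells were not compared and no p-value was calculated. Levels are given as RPKM (the read count divided by region length and by all reads of the column), with exact 95% Poisson intervals that cover counting error only. The read totals behind the columns were 134111848 for KAT7 and 141734087 for H3K14ac.

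KAT7, also called HBO1, is the catalytic subunit of acetyltransferase complexes that place H3K14ac, an acetyl mark on the tail of histone H3. The mark is found at the starts of active genes and reaches into their bodies, and KAT7 is held at transcribed chromatin through partner subunits that read other histone marks. Genes transcribed most strongly in dividing cells are largely those for making proteins, handling RNA, producing energy and packing new DNA, joined by genes particular to the tissue. Of 10 markers of neural stem and progenitor cells, 6 were in the Top class (Nes, Vim, Sox2, Fabp7, Slc1a3 and Ptprz1), and Sox2 is no member because it overlaps another gene body. None of 5 neuron, 4 astrocyte, 4 microglia or 3 endothelial markers was Top, and of 5 oligodendrocyte markers Olig1 and Olig2 were.

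Upstream sequences are shown for 8 members on which the results turn. Each is the 250 bases before the RefSeq transcription start (GRCm38.p6), read in the direction of transcription. Capitals mark matches, on either strand, to the TATA box, spelled TATAAA, to the CCAAT box, searched by those letters, to the GC box, spelled GGGCGG, or to the ETS-factor core, spelled CCGGAAG. None of these contains another. Olig2 and Ckb had the highest KAT7 of all protein-coding members of known symbol apart from Olig1, and Nes had high KAT7 and H3K14ac over a longer body. Rps18 stands for the ribosomal proteins, H2ac12 and H4c12 for the histones, and Dusp6 and Cct2 for the members with no read in the gene body entry.
Olig2, chr16:91225300-91225549, plus strand: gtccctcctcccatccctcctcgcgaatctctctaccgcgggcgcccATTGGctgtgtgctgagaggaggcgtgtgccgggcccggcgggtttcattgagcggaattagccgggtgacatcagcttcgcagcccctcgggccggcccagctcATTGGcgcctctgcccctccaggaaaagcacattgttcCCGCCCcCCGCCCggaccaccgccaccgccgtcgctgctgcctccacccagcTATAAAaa
Ckb, chr12:111672339-111672588, minus strand: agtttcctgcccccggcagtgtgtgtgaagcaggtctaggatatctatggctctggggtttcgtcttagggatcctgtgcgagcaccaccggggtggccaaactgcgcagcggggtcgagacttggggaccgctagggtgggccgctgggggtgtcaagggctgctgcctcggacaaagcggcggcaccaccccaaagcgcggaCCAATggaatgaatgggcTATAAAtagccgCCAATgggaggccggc
Nes, chr3:87970843-87971092, plus strand: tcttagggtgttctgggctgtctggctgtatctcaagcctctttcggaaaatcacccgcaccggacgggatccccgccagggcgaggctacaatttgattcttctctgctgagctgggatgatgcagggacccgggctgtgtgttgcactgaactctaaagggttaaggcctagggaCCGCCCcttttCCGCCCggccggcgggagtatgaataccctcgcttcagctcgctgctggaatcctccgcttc
Rps18, chr17:33955666-33955915, minus strand: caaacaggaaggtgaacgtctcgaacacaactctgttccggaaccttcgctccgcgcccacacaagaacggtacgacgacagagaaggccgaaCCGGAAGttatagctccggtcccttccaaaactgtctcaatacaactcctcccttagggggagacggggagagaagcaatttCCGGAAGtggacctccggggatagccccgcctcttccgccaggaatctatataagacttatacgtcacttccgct
H2ac12, chr13:22035644-22035893, minus strand: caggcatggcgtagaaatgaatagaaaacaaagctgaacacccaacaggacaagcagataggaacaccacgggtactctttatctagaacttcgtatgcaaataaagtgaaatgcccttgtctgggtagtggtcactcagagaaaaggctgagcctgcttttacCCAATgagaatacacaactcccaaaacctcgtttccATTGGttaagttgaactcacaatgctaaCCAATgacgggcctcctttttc
H4c12, chr13:21750554-21750803, minus strand: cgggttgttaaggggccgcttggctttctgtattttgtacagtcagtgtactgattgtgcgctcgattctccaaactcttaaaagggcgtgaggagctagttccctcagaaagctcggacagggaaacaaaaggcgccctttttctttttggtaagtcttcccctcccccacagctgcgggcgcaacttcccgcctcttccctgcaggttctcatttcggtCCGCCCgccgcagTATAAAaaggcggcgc
Dusp6, chr10:99262981-99263230, plus strand: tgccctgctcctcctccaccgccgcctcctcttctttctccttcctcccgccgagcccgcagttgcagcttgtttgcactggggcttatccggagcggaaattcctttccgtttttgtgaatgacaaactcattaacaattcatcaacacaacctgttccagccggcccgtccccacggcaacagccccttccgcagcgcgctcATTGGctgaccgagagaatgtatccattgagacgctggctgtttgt
Cct2, chr10:117063853-117064102, minus strand: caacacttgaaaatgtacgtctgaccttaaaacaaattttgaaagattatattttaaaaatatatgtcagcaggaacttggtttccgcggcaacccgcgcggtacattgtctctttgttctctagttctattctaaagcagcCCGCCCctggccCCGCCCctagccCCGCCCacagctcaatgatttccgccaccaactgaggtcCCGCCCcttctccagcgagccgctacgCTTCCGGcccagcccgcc
The RefSeq start and the start of the gene body in the table were the same base for Olig2, Ckb, Nes and Dusp6. They lay 24 bases apart for Rps18, 91 for H2ac12, 48 for H4c12 and 38 for Cct2. Olig2 and Ckb each held 1 TATA box just before the start and 2 CCAAT boxes, Rps18 held 2 ETS cores, H2ac12 held 3 CCAAT boxes, and Cct2 held 4 GC boxes and 1 ETS core.

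Many Top members belonged to families of general cell machinery. The families were not counted over the other gene bodies, so whether any is enriched in the class cannot be given. Grouped by gene symbol, the largest families were membrane traffic and lysosome with 60 members, splicing and RNA-binding proteins with 53, the respiratory chain and ATP synthase with 50, signalling and GTPases with 48, the proteasome and ubiquitin system with 47, and actin and adhesion with 42. Replication-dependent histones, which package newly copied DNA, contributed 37 members, all but 4 of them on chromosome 13. Cytosolic ribosomal proteins contributed 30, DNA replication and cell cycle genes 32, chaperones 24, and translation factors 19. Genes closer to the identity of the tissue were fewer, with 26 for extracellular matrix, ligands and surface proteins and 17 for transcription factors. A further 24 members are pseudogenes and 11 are non-coding RNA genes by RefSeq type, 117 fell in no family, and 10 have no symbol in the gene table. Top genes made up 8.52% of the gene bodies of chromosome 13, where 33 of 60 members were replication-dependent histones, and between 3.21% and 6.01% on every other autosome.

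KAT7 was higher over Top gene bodies than over the rest, while H3K14ac barely differed between the classes. The median KAT7 level was 0.436 RPKM over Top, 0.398 over Other and 0.377 over Bottom gene bodies. The quartiles of Top members were 0.415 and 0.472, so that the lower one was above the Other median. The median H3K14ac level was 0.388 RPKM over Top, 0.380 over Other and 0.387 over Bottom gene bodies, and the quartiles of Top members were 0.360 and 0.423. Matched by band of length, Top bodies had 1.12 times the KAT7 of Other bodies and 1.15 times that of Bottom bodies. The matched H3K14ac ratios were 1.04 to Other and 1.04 to Bottom bodies. Without replication-dependent histones the H3K14ac ratio to Other bodies was 1.01, and with 20 narrower length bins the ratio to Bottom bodies turned to 0.985. Windows upstream of the start and past the transcription end of plus-strand Top genes had medians close to those of the bodies. They were 0.425 and 0.429 RPKM for KAT7, and 0.388 and 0.367 for H3K14ac. With no IgG column, the share of background in the levels over bodies cannot be given. Across the 799 members KAT7 and H3K14ac levels had a Spearman rho of 0.639, over genes that share the same libraries and with levels that both depend on length.

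A member was called high where the lower bound of its interval lay over the 90th percentile of all 15929 gene bodies in its length band, and low where the upper bound lay under the 10th. For KAT7, 103 Top members (12.9%) were high, against 2.95% of all gene bodies. For H3K14ac, 62 Top members (7.76%) were high, against 3.2% of all gene bodies. Of these, 42 were high for both, 61 for KAT7 alone and 20 for H3K14ac alone. Low calls were rarer than in the background: 12 members (1.50%) for KAT7 against 4.24%, and 15 (1.88%) for H3K14ac against 4.18%. Among Bottom bodies 1.02% were high and 9.38% low for KAT7.

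The level and its spread both varied with length. Top bodies were shorter, with a median of 12180 bases against 17688 in Other and 17760 in Bottom bodies, and they ran from Scarna2 at 61 bases to Exoc4 at 723794. The 74 members of up to 1000 bases had a median of 0.529 RPKM for KAT7 and 0.599 for H3K14ac. The 72 members of 1001 to 3000 bases had 0.498 and 0.464, the 208 of 3001 to 10000 bases had 0.456 and 0.397, and the 280 of 10001 to 30000 bases had 0.427 and 0.369. The 141 members of 30001 to 100000 bases had 0.427 and 0.381, and the 24 longer ones 0.421 and 0.403. The interquartile range shrank from the shortest to the longest band, from 0.171 to 0.0145 RPKM for KAT7 and from 0.383 to 0.0182 for H3K14ac. Fewer reads lie behind the values of short bodies, so their spread holds more counting error. A read reaching over the edge of a region can count in full, which would raise the RPKM of short regions. Other bodies were also higher when short, with KAT7 medians of 0.459 at up to 1000 bases and 0.394 at 10001 to 30000. The part of length itself was not tested. In Other bodies of up to 1000 bases the range was smaller, 0.138 for KAT7 and 0.135 for H3K14ac. The shortest Top band also mixes families. Replication-dependent histones had a family median of 0.799 RPKM for H3K14ac, and the 39 members of the band without them had 0.449.

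**Figure D1:**
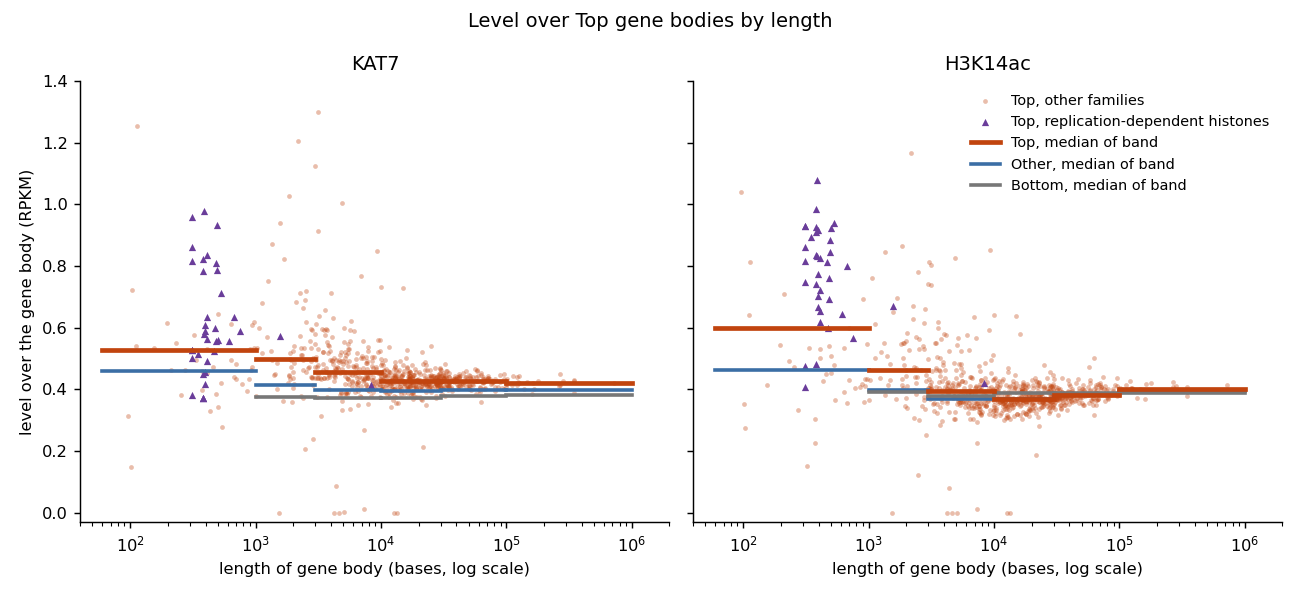
KAT7 (left) and H3K14ac (right) level in RPKM over each Top gene body against its length in bases on a log scale, with horizontal lines for the median of each length band in the Top, Other and Bottom classes; Bottom has no gene body of up to 1000 bases. KAT7 medians of the Top class lie above those of Other in every band, and H3K14ac medians in the 3 bands up to 10000 bases, beyond which they lie within 1.02-fold of Other; 2 members per panel exceed 1.4 RPKM and are not drawn.

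The gap between Top and Other bodies also depended on length, and differently for the antibodies. The ratio of medians for KAT7 was 1.15, 1.20, 1.15, 1.08, 1.07 and 1.06 in the 6 bands, short to long. For H3K14ac it was 1.29, 1.16, 1.07, 1.00, 0.999 and 1.02. Beyond 10000 bases the H3K14ac medians of Top and Other bodies were thus within 1.02-fold of each other, and the KAT7 median of Top bodies was still higher. Without histones 39 members remain in the shortest band, with medians of 0.474 RPKM for KAT7 and 0.449 for H3K14ac, against 0.459 and 0.464 in Other bodies. Among the 5 longest members KAT7 spanned 0.387 to 0.430 RPKM and H3K14ac 0.379 to 0.415. Prkcb, a protein kinase C, was lowest for KAT7 with 0.387 (0.381 to 0.393), and Tcf4, a basic helix-loop-helix transcription factor, was lowest for H3K14ac with 0.379 (0.374 to 0.385). The 5 shortest members, all small RNA genes, rest on 2 to 21 reads and scatter widely, from 0.149 RPKM (Rny3) to 2.61 (Scarna2) for KAT7.

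Several transcription factors and signalling regulators were among the protein-coding members with the highest levels. Olig2, a basic helix-loop-helix factor that specifies motor neurons and oligodendrocytes, had 545 KAT7 reads, or 1.30 RPKM (1.19 to 1.41), and 356 H3K14ac reads, or 0.803 (0.722 to 0.891). Its neighbour Olig1 had 1.21 RPKM (1.08 to 1.34) of KAT7 and 1.17 (1.05 to 1.29) of H3K14ac. Ckb, the brain creatine kinase, had 1.12 (1.02 to 1.23) of KAT7 and 0.743 (0.663 to 0.830) of H3K14ac. These values are 2.70 to 3.26 times the median KAT7 of gene bodies of the same length band. Spry2, a feedback inhibitor of receptor tyrosine kinases, had 1.01 RPKM of KAT7 and 0.825 of H3K14ac, and Id3, an inhibitor of basic helix-loop-helix factors, had 0.940 and 0.652. Gas1, a hedgehog co-receptor, had 0.915 and 0.739, and Fam181b had 1.03 and 0.865. Nes, the intermediate filament of neural stem cells, was longer: over 9359 bases it had 0.850 RPKM (0.800 to 0.903) of KAT7 and 0.851 (0.802 to 0.902) of H3K14ac. Among the transcription factors 7 of 17 members were high for KAT7 and 5 for H3K14ac, and among signalling genes 15 and 7 of 48. Ccnd1, the cyclin that opens the cell cycle to growth signals, had 0.732 and 0.642 RPKM.

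The highest value of all came from an entry without a symbol in the gene table, on chromosome 17 (chr17:39829210-39848825). It had 9.07 RPKM (8.96 to 9.19) of KAT7 and 6.81 (6.72 to 6.91) of H3K14ac, from 23865 and 18946 reads. The next highest KAT7 level was that of Scarna2, a small Cajal body RNA, with 2.61 RPKM (1.62 to 3.99) from 21 reads. How reads that map to several places were handled is not given in the sources used here, so values of repeated sequence, processed pseudogenes and near-identical gene copies are uncertain. That limit holds for the histone and ribosomal protein families as well.

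Replication-dependent histones had the highest H3K14ac of any family and were the one large family in which H3K14ac exceeded KAT7. Their median was 0.574 RPKM for KAT7 and 0.799 for H3K14ac, which is 1.25 and 1.71 times the median of all gene bodies of their length bands. H2ac12 had 30 KAT7 reads (0.580 RPKM, 0.391 to 0.827) and 59 H3K14ac reads (1.08, 0.821 to 1.39). H2bc12, next to it, had 19 KAT7 reads (0.373, 0.224 to 0.582) and 53 H3K14ac reads (0.984, 0.737 to 1.29). Others had more KAT7: H4c4 had 0.959 RPKM of KAT7 and 0.476 of H3K14ac, H2ac20 had 0.978 and 0.834, and H3c10 had 0.934 and 0.884. Median H3K14ac by histone type was 0.839 for H4, 0.825 for H2B, 0.804 for H2A, 0.742 for H3 and 0.669 for H1, and these medians rest on 3 to 10 genes each. With 312 to 506 bases in most of these genes, the counts are small, and no histone was called high for KAT7 and 2 were for H3K14ac. H2bc4, whose entry spans 8282 bases, had 0.415 and 0.422 RPKM, close to other bodies of that length.

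Protein synthesis genes split by machine. Cytosolic ribosomal proteins had medians of 0.542 RPKM for KAT7 and 0.528 for H3K14ac, 1.35 and 1.34 times those of all gene bodies of their length bands, and 12 of 30 were high for KAT7 and 9 for H3K14ac. Rps15 had the highest KAT7, with 0.824 RPKM (0.710 to 0.951), and 0.696 (0.594 to 0.810) of H3K14ac. Rpl41, which had the highest H3K14ac, had 0.599 and 0.760, Rpl8 0.713 and 0.628, and Rps18 0.596 and 0.463. Mitochondrial ribosomal proteins (6 members, 0.429 and 0.365), translation factors (19 members, 0.432 and 0.370) and tRNA synthetases (4 members, 0.414 and 0.344) stayed close to the Top medians or under them. At 3000 bases or more, where length has less effect, the 14 ribosomal proteins still had 0.528 and 0.467, against 0.432 and 0.378 over all 654 such Top members.

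High KAT7 calls were frequent among RNA handling genes and absent from the respiratory chain. In the whole Top class 12.9% of members were high for KAT7 and 7.76% for H3K14ac, against 2.95% and 3.2% of all gene bodies. Splicing and RNA-binding proteins had medians of 0.451 RPKM for KAT7 and 0.388 for H3K14ac, with 16 of 53 members high for KAT7 and 4 for H3K14ac. Srsf2, a splicing factor of the SR family, had 0.639 (0.566 to 0.719) of KAT7 and 0.459 (0.399 to 0.526) of H3K14ac. The respiratory chain and ATP synthase had 0.438 and 0.368, and none of its 50 members was high for either. Calls also depend on length, as shorter bodies hold fewer reads, and median lengths were 6339.5 bases here and 10713 in splicing genes. Relative to the length band, the KAT7 medians of these 2 families were close, at 1.10 and 1.13. The proteasome and ubiquitin system had 0.427 and 0.363, with none of 47 high for KAT7 and 1 for H3K14ac. The 6 glycolysis genes had 0.492 and 0.424, among them Eno1, an enolase, with 0.539 and 0.428 and Aldoa, an aldolase, with 0.503 and 0.567. DNA replication and cell cycle genes had 0.429 and 0.368, with 4 of 32 members high for KAT7 and 3 for H3K14ac. The helicase subunit Mcm5 (0.423 and 0.360) and the sliding clamp Pcna (0.496 and 0.480) were not called high.

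Of 25 families with at least 5 members, 11 had a KAT7 median above that of the class. Actin, surface, membrane traffic and pseudogene members were among the families below it. Actin and adhesion genes had medians of 0.433 RPKM for KAT7 and 0.388 for H3K14ac, and Actb, the cytoplasmic actin, had 0.659 and 0.620. Extracellular matrix, ligand and surface genes had 0.422 and 0.411. Ptn, a growth factor of neural progenitors, had 0.450 and 0.436, and Ptprz1, its receptor phosphatase, had 0.428 and 0.421. Membrane traffic and lysosome genes had 0.422 and 0.372. The 24 pseudogenes had 0.418 and 0.413, which is 0.944 and 0.946 times the median of all gene bodies of their length bands, and 2 of them had a CpG island over the start.

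**Figure D2:**
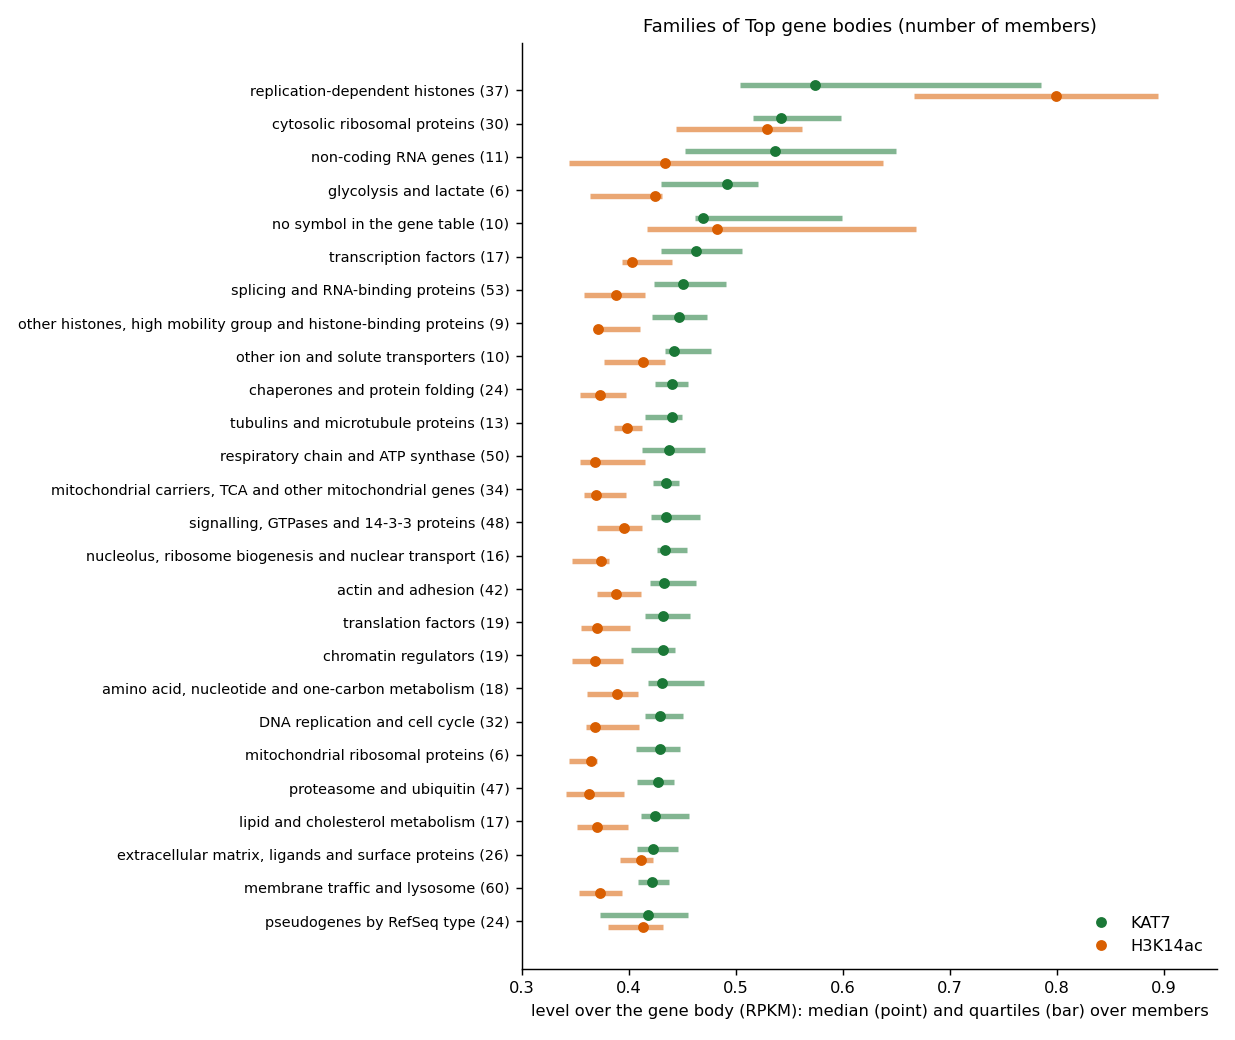
Median (point) and quartiles (bar) of KAT7 and H3K14ac level in RPKM over the members of each family of at least 5 Top gene bodies, ordered by KAT7, with the number of members in brackets. Replication-dependent histones are at the top with 0.574 for KAT7 and 0.799 for H3K14ac, followed by cytosolic ribosomal proteins with 0.542 and 0.528; the axis starts at 0.3 RPKM.

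The balance of the antibodies also differed between the expression classes. The ratio of KAT7 to H3K14ac RPKM had a median of 1.13 over Top, 1.05 over Other and 0.974 over Bottom gene bodies. The exact binomial interval of a body's ratio, which again covers counting error only, lay above the median of all gene bodies (1.05) in 302 Top members (37.8%), against 19% of all gene bodies. It lay below that median in 29 Top members (3.63%), against 21% of all gene bodies. Among Bottom bodies 2.94% lay above and 45.6% below. In the band of 10001 to 30000 bases 144 of 280 members lay above and 2 below. By family, 28 of 53 splicing and RNA-binding genes lay above, 24 of 47 proteasome and ubiquitin genes, 14 of 24 chaperones and 12 of 17 lipid and cholesterol genes. Shares were smaller in the respiratory chain and ATP synthase with 12 of 50, cytosolic ribosomal proteins with 5 of 30, extracellular matrix and surface genes with 4 of 26, and histones with 1 of 37. Shorter bodies hold fewer reads and have wider intervals, so these shares also depend on length. The respiratory chain had a median ratio of 1.15 at a median length of 6339.5 bases. The proteasome and ubiquitin family had nearly the same ratio, 1.16, at 14101 bases.

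Rpph1, the RNA subunit of ribonuclease P, had the highest ratio among the members above the median, 3.77 (1.59 to 10.3), from 25 KAT7 and 7 H3K14ac reads. By the lower bound of the interval, Olig2 followed with 1.62 (1.41 to 1.85), then Gnb2, a G protein beta subunit, with 1.57 (1.34 to 1.85), the polo-like kinase Plk2 with 1.54 (1.34 to 1.77) and Ckb with 1.51 (1.31 to 1.75). Olig1, which lies beside Olig2, had 1.03 (0.889 to 1.20), an interval that does not reach that of Olig2. Of the 29 members below the median ratio, 10 were replication-dependent histones, with H2bc12 lowest among them at 0.379 (0.212 to 0.651). Outside the histones, Phlda3, an inhibitor of AKT signalling, had 0.753 (0.637 to 0.888), Cdk2ap1, a partner of a cyclin-dependent kinase, had 0.790 (0.708 to 0.881), and Emc10, a subunit of an endoplasmic reticulum insertase, had 0.789 (0.679 to 0.917). Very long bodies came close to equal levels, with 1.01 (1.00 to 1.03) for Exoc4, an exocyst subunit.

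**Figure D3:**
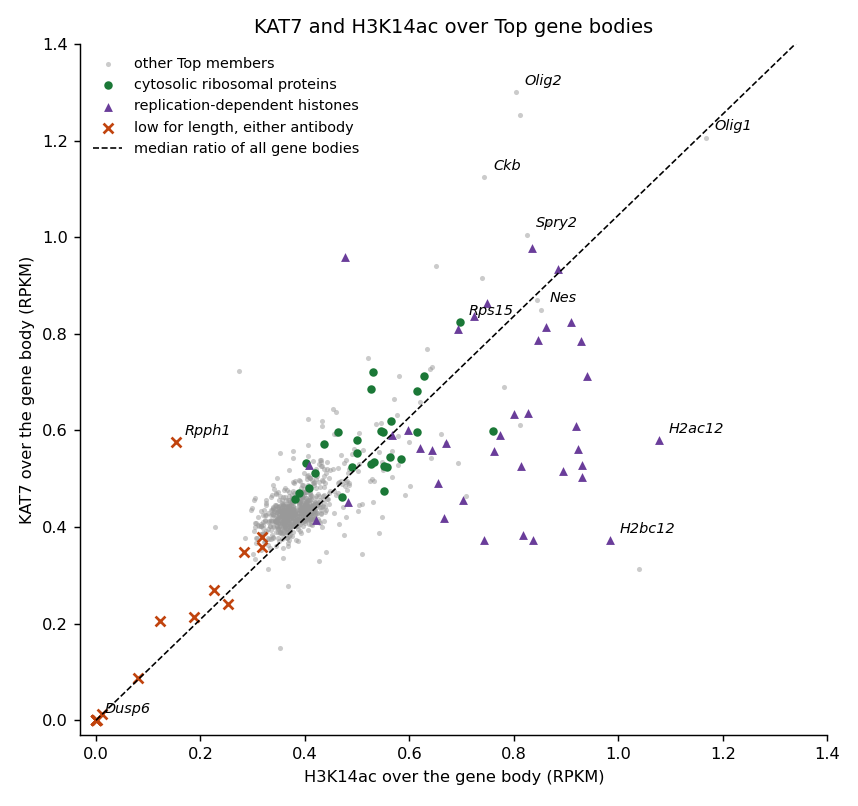
KAT7 level against H3K14ac level, both in RPKM, for each Top gene body; the dashed line marks the median ratio of all gene bodies (1.05), triangles are replication-dependent histones, green points cytosolic ribosomal proteins and crosses the 16 members low for their length for either antibody. Most members sit just above the line, most histones below it, and 7 crosses lie at or near 0 for both; members above 1.4 RPKM are not drawn.

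Regions around the start did not enter the choice of members. Over CpG islands the H3K14ac medians of the classes lay farther apart than over bodies. Over the window upstream of the start they lay nearly as close together as over bodies. A CpG island covered the start of 625 Top genes (78.2%), 51.1% of Other and 11.8% of Bottom genes. Over islands with a single start the median KAT7 level was 0.545 RPKM in Top (527 islands), 0.483 in Other and 0.449 in Bottom genes. The median H3K14ac level was 0.555 in Top, 0.447 in Other and 0.357 in Bottom islands. Within the Top class the level of a body and of its island had a Spearman rho of 0.333 for KAT7 and 0.387 for H3K14ac over those 527 genes. An island over the start shares bases with its body, so some reads count in both and the rho is partly built in. For Ckb the island has 1973 bases and the body 2984. In the window upstream of the start, measured for plus-strand genes alone, KAT7 was 0.425 in Top, 0.410 in Other and 0.388 in Bottom genes, and H3K14ac was 0.388, 0.377 and 0.386 in the same order. Past the transcription end KAT7 was 0.429, 0.406 and 0.390, and H3K14ac was 0.367, 0.385 and 0.402, lowest in the Top class.

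Short IS elements (an abbreviation the table does not expand, 60 to 400 bases) inside gene bodies gave levels by distance from the gene start. Each distance bin pools a different set of Top genes, from 41 to 181 of them, so the bins do not follow a single gene along its length. H3K14ac over Top genes was highest 250 to 500 bases from the start, at 1.06 RPKM (1.03 to 1.09), against 0.731 in Other and 0.519 in Bottom genes, and at 500 to 1000 bases it was 1.01 (0.979 to 1.04). KAT7 over Top genes was 0.804 (0.778 to 0.830) at 250 to 500 bases and 0.956 (0.928 to 0.984) at 500 to 1000 bases, where Other genes had 0.723 and Bottom genes 0.509. At 1000 to 2000 bases, with elements in 52 Top genes, KAT7 was 0.971 (0.924 to 1.02), which cannot be told from the bin before it, and H3K14ac was 0.791 (0.750 to 0.834). At 5000 to 20000 bases H3K14ac had come down to 0.523 (0.499 to 0.547) in Top genes, against 0.545 in Other and 0.544 in Bottom genes, and KAT7 was 0.602 (0.576 to 0.629), against 0.565 and 0.509. These elements were chosen by the authors on grounds not given in the sources used here, and they lie above the level of whole bodies in every class. Reads over their edges may raise the level of such short regions, which was not tested.

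**Figure D4:**
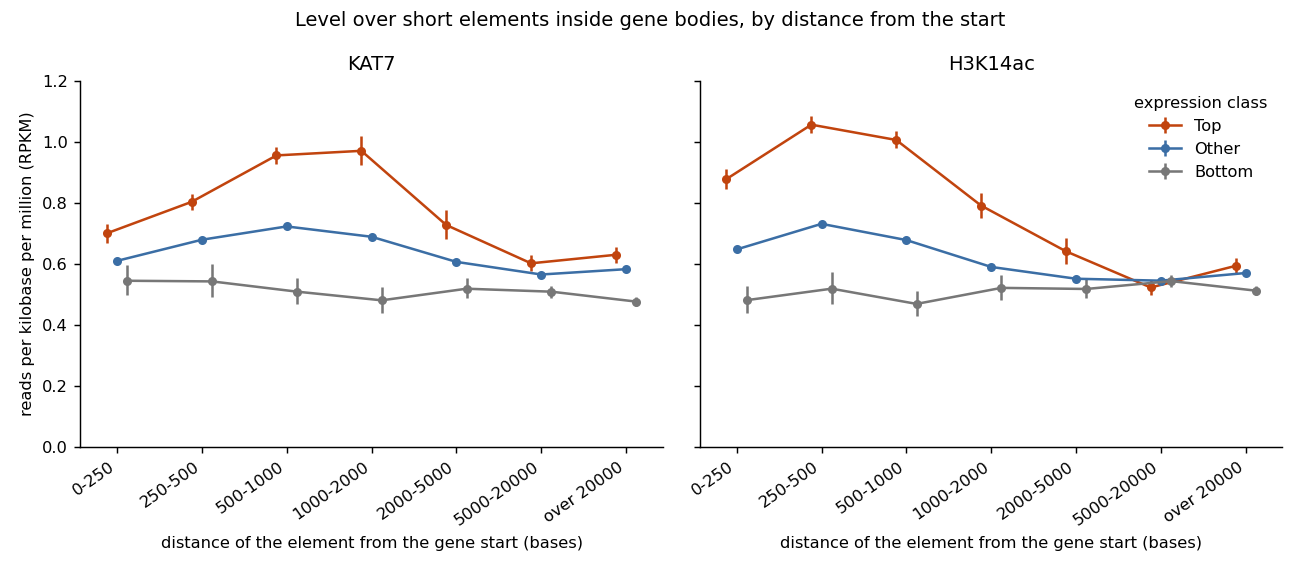
KAT7 (left) and H3K14ac (right) level in RPKM, as summed reads over summed length of IS elements of 60 to 400 bases, by distance from the gene start in bases, for Top, Other and Bottom gene bodies; bars are exact 95% Poisson intervals. Over Top genes H3K14ac is highest at 250 to 500 bases (1.06) and KAT7 between 500 and 2000 bases (0.956 and 0.971), and the curves of Bottom genes stay between 0.469 and 0.545.

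Against these levels, 16 members were low for 1 or both antibodies, 11 of them for both. In 7 the gene body entry was at or near 0 for both. Dusp6, a phosphatase that dampens ERK signalling, Spry1, a feedback inhibitor like Spry2, the chaperonin subunit Cct2 and the pseudogene Gm7964 held 0 reads of either antibody. The upper bounds of the Dusp6 entry were 0.00646 RPKM for KAT7 and 0.00611 for H3K14ac, and they cover counting error only. Other entries that reach into its body held reads, as given below. Cd24a, a surface glycoprotein, held 1 KAT7 and 0 H3K14ac reads, and Ostc, a subunit of the oligosaccharyltransferase complex, held 0 and 2. Slc25a3, the mitochondrial phosphate carrier, held 12 and 13.

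Most entries of other region classes over the same genes did hold reads. The CpG island over the start of Dusp6 had 250 KAT7 and 319 H3K14ac reads (0.694 and 0.838 RPKM), and that of Spry1 had 156 and 130 (0.829 and 0.654). Islands of Cd24a (82 and 122 reads), Slc25a3 (63 and 101), Ostc (34 and 38) and Cct2 (26 and 60) were covered as well. An entry of the table's pseudogene class over the whole of Slc25a3 held 515 KAT7 and 514 H3K14ac reads. Another, chr7:83755870-83757802, covers most of Gm7964 and reaches past its end, and held 121 and 127. The window past the end of Gm7964, from 83757356 on, held 27 and 25. The Gm7964 body entry at 0 may thus be no measure of its level, which was not tested. A pair of such entries over Cct2, which overlap each other, held 0 KAT7 reads and at most 1 H3K14ac read. A like pair of overlapping entries inside Pfkl held 0 reads, although the Pfkl body held 1070 KAT7 and 915 H3K14ac reads. The pair over Cct2 is thus no measure of the level there. The Cct2 island, chr10:117063294-117063896, lies mostly inside the body, which starts at 117063814 on the minus strand. The Cct2 body entry at 0 may thus be no measure of its level, which was not tested. In 3 of the 7, Spry1, Cd24a and Slc25a3, a single short element lying wholly inside the body held more reads than the body's own entry. Every base of those elements lies in the body, so these body entries hold fewer reads than a stretch of themselves, and they are no measure of the level over these genes. Such a shortfall was seen in 3 of 530 Top bodies with an element inside, against 0.575% of all gene bodies, and its cause was not tested. Over Dusp6 an entry of the table's Enh class, chr10:99260922-99265875, held 523 KAT7 and 561 H3K14ac reads. It reaches past the body's start at 99263231, and the window upstream of that start held 121 and 182 reads. The island over the start, chr10:99261496-99264181, begins inside that window, yet its 250 and 319 reads exceed those of the whole window. By these counts some of its reads lie past the body's start, inside the body. The Dusp6 body entry at 0 is therefore no measure of its level either, and the cause was not tested.

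The other low members had reads, but lay under the 10th percentile of their length band. Cox8a, a subunit of cytochrome c oxidase, had 0.206 RPKM (0.160 to 0.262) of KAT7 and 0.123 (0.0893 to 0.166) of H3K14ac. Snrpg, a core protein of spliceosomal RNPs, had 0.269 and 0.226, and Sf3b2, a splicing factor subunit, had 0.214 and 0.187. Islands over the starts of these 3 lay between 0.452 and 0.570 RPKM for KAT7 and between 0.321 and 0.720 for H3K14ac. Rps9, a protein of the small ribosomal subunit, was low for KAT7 alone, with 0.240 (0.194 to 0.295) and an H3K14ac level of 0.252 (0.205 to 0.306), against family medians of 0.542 and 0.528. Whether these partial values and the entries at 0 have the same cause was not tested.

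Low H3K14ac without low KAT7 was called in Rpph1, Pfkl, Parp1 and Aplp2. Rpph1 had 0.575 RPKM (0.372 to 0.849) of KAT7 and 0.152 (0.0613 to 0.314) of H3K14ac, and the island over its start had 0.360 and 0.143. Pfkl, a phosphofructokinase, had 0.349 of KAT7 and 0.283 (0.265 to 0.301) of H3K14ac. Parp1, a poly(ADP-ribose) polymerase, had 0.379 of KAT7 and 0.318 (0.302 to 0.335) of H3K14ac, with an island at 0.694 and 0.305. Aplp2, a relative of the amyloid precursor protein, had 0.358 of KAT7 and 0.318 (0.306 to 0.330) of H3K14ac over 62259 bases, with an island at 0.752 and 0.589.

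**Figure D5:**
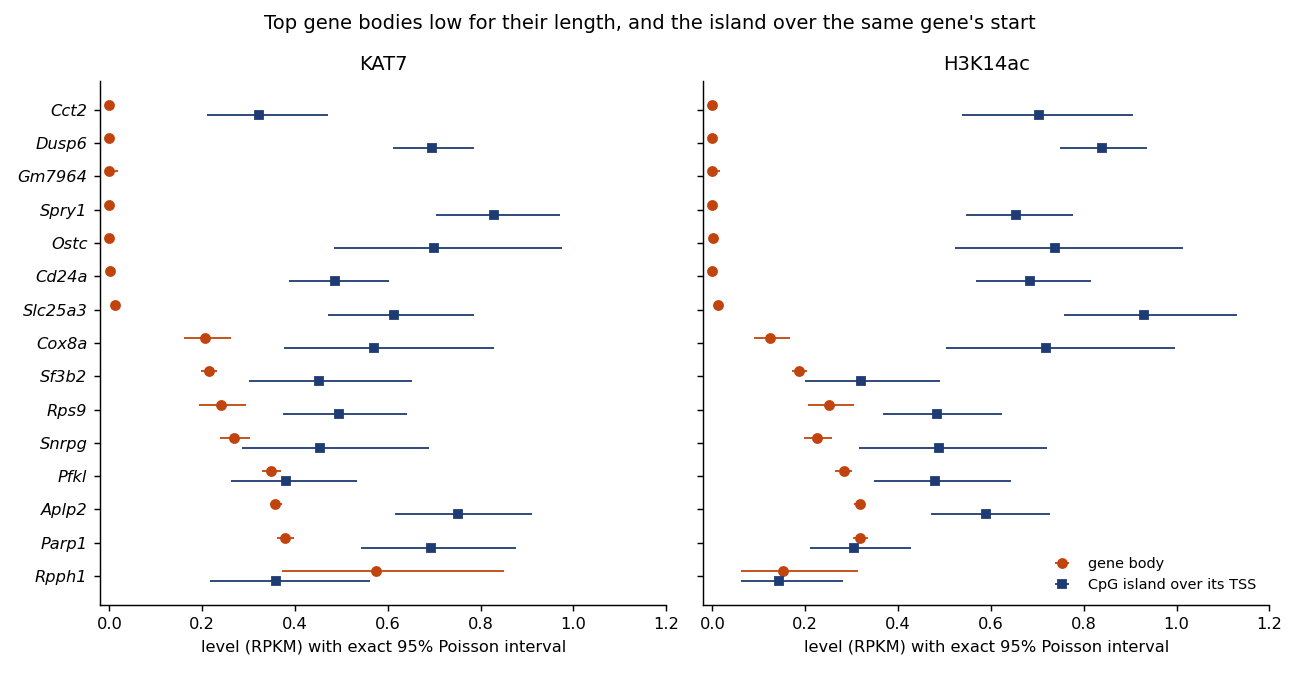
KAT7 (left) and H3K14ac (right) level in RPKM with exact 95% Poisson intervals for the gene body (circle) and for the CpG island over its start (square) of 15 of the 16 Top members low for their length; Gm7964 has no island. Bodies of 7 genes sit at 0 or up to 0.0124 RPKM while the islands of 6 of them lie between 0.322 and 0.930.

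Promoter sequence was available for 608 members in the RefSeq table, and for 585 of them the start lay within 250 bases of that in the authors' table. Windows of 300 bases around these starts had a median GC content of 61.0% in Top genes, against 58.7% in all. A GC box was found in 67.7% of Top windows, against 54.6% of all 11328 windows. The CCAAT box was found in 46.3% against 38.7%, the ETS core in 22.2% against 14.0%, and the TATA box in 11.8% against 10.3%. Of the 69 Top windows with a TATA box 22 were those of histones, so its share in the class leans on that family. An E-box (CACGTG) was found in 9.74% against 9.02%, and the letters ATGGCGG, a core of the factor YY1, in 10.3% against 6.29%. Families differed: of 34 histone windows 22 held a TATA box and 30 a CCAAT box, as in H4c12 and H2ac12 above, and none held the ETS core. Of 20 ribosomal protein windows 8 held the ETS core, as in Rps18 above, and of 36 proteasome and ubiquitin windows 14 did. A match is a run of letters and no measure of binding.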

How the data were processed

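ChIP-seq libraries of KAT7, H3K14ac and IgG were made from mouse neurospheres, 13 in all per the labels. The authors deposited 1 table of regions with a read count and an RPKM value for 1 merged KAT7 and 1 merged H3K14ac column, per the file headers. Per the submitters' processing notes, reads were placed on mm10 and the tools include Bowtie2, SAMtools, Picard, deepTools and featureCounts; the sources used here give neither tool versions nor the libraries behind each column. The deposited RPKM matched count, length and read total (relative tolerance 1e-05) in all regions with a read.

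Counts were used as deposited, with no filter on low or high values. Exact Poisson and Clopper-Pearson intervals, at 95%, were computed per region, and gene bodies were compared within 6 length bands with Python 3.11.15, pandas 2.3.3, NumPy 2.4.6 and SciPy 1.17.1; matched ratios are medians over bands with at least 10 bodies in both classes. The interval code was tested on simulated data. Bodies over 5 RPKM were left out of the distance profile, where the chromosome 17 entry alone would have set a level. Families follow symbol patterns and RefSeq type. The members and lists were chosen with earlier results of these data known, and the split of the histones, some family assignments, the pseudogene, non-coding and surface-protein families, the sequences shown, the check of elements inside bodies and the measure relative to the length band were chosen after values were seen. Named genes are the 10 highest and 10 lowest by interval bound per antibody, 8 each way for the ratio, the 5 longest and shortest, family extremes and a fixed list, from which those that carry a result are printed, with others chosen after their values were seen. Values of 1 low member are not reported here.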

Additional observations from a re-analysis of the deposited data

How the results depend on the processing

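No paired analysis was possible because the merged columns carry no replicates, and for the same reason no replicate could be left out and Kat7-deleted and Kat7-intact cells could not be compared. Intervals cover counting error only. With overlapping gene bodies kept, the matched ratios of Top to Other and to Bottom were 1.11 and 1.15 for KAT7, 1.05 and 1.03 for H3K14ac, and low members numbered 21 for KAT7 and 27 for H3K14ac. With chromosomes X and Y the ratios to Bottom were 1.15 for KAT7 and 1.035 for H3K14ac, the ratio to Other was 1.04 for H3K14ac, and 39 and 41 members were low, members on X being added. At 1000 bases or more the ratios to Other were 1.085 and 1.02, and 18 members lay below the median ratio. Without replication-dependent histones they were 1.08 and 1.01, with 19 members below. By summed counts the ratios to Other and Bottom were 1.17 and 1.215 for KAT7 and 1.09 and 1.065 for H3K14ac. With 20 length bins they were 1.09 and 1.14 for KAT7, 1.02 and 0.985 for H3K14ac, so H3K14ac against Bottom reversed; the cause was not tested. At a mean of 0.1 RPKM or more, 4 and 8 members were low for KAT7 and H3K14ac, the entries near 0 being removed. With the 5th and 95th percentiles 60 and 41 members were high, and against all lengths 95 were high for H3K14ac. In the other 62 results under an alternative, ratios moved by less than their counting interval and counts stayed within 1.5 times the reported one, for example 129 members high for KAT7 and 80 for H3K14ac with overlapping bodies kept.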
